A study of Mus musculus with 4 samples.

Results

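The cells described here carried 1 productive T cell receptor beta chain (TRB) and 2 productive alpha chains (TRA) under the same cell barcode. They were chosen from the deposited receptor contigs as barcodes with exactly 1 productive TRB and exactly 2 productive TRA, and were set against barcodes with 1 TRB and 1 TRA. A barcode also had to pass the RNA filter of at least 500 genes, at least 1000 UMIs (unique molecular identifiers, 1 per captured RNA molecule) and at most 10% mitochondrial UMIs. These rules gave 1246 cells with 2 TRA, 386 from brain and 860 from spleen, among 9887 cells with 1 TRB and 1 or 2 TRA and 12617 filtered RNA barcodes. The comparison cells with 1 TRA numbered 2752 in brain and 5889 in spleen.

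The study profiled the transcriptome and the receptor repertoire of conventional CD4+ T cells in the chronic phase of experimental autoimmune encephalomyelitis (EAE), a mouse model of central nervous system autoimmunity. Both tissues came from wild-type C57BL/6 mice at day 60 after immunization, and there was no untreated group. Cells were sorted as CD4+, CD44+ (antigen-experienced) and GITR- (a surface protein high on regulatory T cells), and 18718 brain and 38000 spleen cells were loaded for 5' single-cell libraries. Each tissue has 1 RNA library and 1 receptor library, so that no difference between cells or tissues has a replicate check, and the sources used here do not say how many animals a library holds. Intervals below are exact 95% intervals (Clopper-Pearson) that cover counting error only. Where a count is 0, the limit given is instead 3 counts of the total, and for transcripts it limits cells with a detected UMI, not cells that express the gene.

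A T cell makes its beta chain first, and a successful beta chain stops rearrangement of the other copy of that gene. Alpha rearrangement has no such stop: both copies of the alpha locus are rearranged in the same thymocyte, each can be rearranged again with more distant V and J segments, and the process ends when the cell is positively selected. A mature T cell can therefore carry 2 in-frame alpha chains, of which both may reach the surface with the single beta chain. In a droplet assay, 2 cells under 1 barcode can also give 2 alpha chains, and they would usually give 2 beta chains as well.

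The receptors found in most cells show what such a cell looks like at the sequence level. The CDR3 nucleotides of the 4 leading receptors, which are named R1 to R4 by their number of cells, are printed from the deposited contigs because the recurrence results below turn on them. Capitals mark the bases between the V-side and the J-side ends, where an end is the stretch shared by at least 50% of the distinct CDR3s of that V or J segment in both libraries. Of the 2 TRA of a receptor, the first is the one with more UMIs over all its cells.
R1 TRB, TRBV20 and TRBJ2-1: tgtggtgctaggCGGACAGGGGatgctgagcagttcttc
R1 first TRA, TRAV14D-3-DV8 and TRAJ12: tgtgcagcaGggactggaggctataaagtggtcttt
R1 second TRA, TRAV9N-3 and TRAJ21: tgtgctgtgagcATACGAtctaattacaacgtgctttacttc
R2 TRB, TRBV5 and TRBJ1-1: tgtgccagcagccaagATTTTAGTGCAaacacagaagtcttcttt
R2 first TRA, TRAV2 and TRAJ27: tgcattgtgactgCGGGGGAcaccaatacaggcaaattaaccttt
R2 second TRA, TRAV10 and TRAJ33: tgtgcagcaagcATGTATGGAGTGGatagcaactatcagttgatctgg
R3 TRB, TRBV16 and TRBJ2-7: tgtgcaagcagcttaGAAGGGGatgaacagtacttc
R3 first TRA, TRAV3N-3 and TRAJ27: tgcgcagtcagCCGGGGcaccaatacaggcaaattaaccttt
R3 second TRA, TRAV14N-1 and TRAJ37: tgtCcaggcaataccggaaaactcatcttt
R4 TRB, TRBV12-2+TRBV13-2 and TRBJ2-3: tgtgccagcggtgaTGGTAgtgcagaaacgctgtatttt
R4 first TRA, TRAV8N-2 and TRAJ22: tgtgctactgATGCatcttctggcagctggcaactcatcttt
R4 second TRA, TRAV13-1 and TRAJ12: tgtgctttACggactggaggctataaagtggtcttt

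The 2 TRA of each of these receptors differ in V segment, in J segment and in the bases between them. R1 was in 27 brain cells and R3 in 8 brain cells. R2 was in 8 brain and 5 spleen cells, and R4 in 1 brain and 6 spleen cells.

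Cells with 2 TRA were about equally frequent in the 2 tissues. They made up 386 of 3138 paired cells in brain (12.3%, 11.2 to 13.5) and 860 of 6749 in spleen (12.7%, 11.96 to 13.6), with intervals that overlap. Counting each receptor once, the share was 300 of 2139 in brain (14.03%) and 814 of 6249 in spleen (13.0%). The deposited contigs were all productive and listed at most 2 TRA and 2 TRB per barcode. The other classes of receptor barcode were TRB alone (124 in brain, 305 in spleen), TRA alone (89 and 146), 2 TRB with 1 TRA (83 and 199) and 2 TRB with 2 TRA (96 and 116).

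The sort and the markers of these cells were compared first. In cells with 2 TRA, a UMI of Cd3e, a signalling subunit of the receptor complex, was found in 386 of 386 brain and 854 of 860 spleen cells, and one of Cd4 in 95.1% and 89.0%. In a spleen cluster of 167 barcodes led by Cd74, H2-Aa and Cd79a, which are B cell genes, the same shares were 8.98% and 7.78%. The Cd8a coreceptor gene was found in 2 brain and 1 spleen cell. Tnfrsf18, which encodes GITR, had a UMI in 269 of 386 brain cells with 2 TRA (69.7%) and 442 of 860 spleen cells (51.4%), and 13.8% of that B cell-like cluster, so that the surface sort did not leave cells without the transcript. Foxp3, the regulatory T cell factor, had a UMI in 7.51% of brain and 12.4% of spleen cells with 2 TRA, against 5.23% and 11.4% of cells with 1 TRA. The enzymes that cut and join receptor segments were at or near 0: Rag1 and Rag2 had no UMI in either tissue, which allows shares with a UMI of up to 0.777% in brain and 0.349% in spleen, and Dntt had one in 1 brain and 12 spleen cells. In the whole series, 4143 of 4277 brain and 8474 of 8707 spleen RNA barcodes passed the filter, and the deposited matrices hold 44386447 and 65191435 RNA UMIs. Brain and spleen shared 31 barcodes in their RNA libraries, of which 9 had a receptor in both, none of them the same receptor.

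The 2 alpha chains of a cell were close to balance. In brain the stronger chain had a median of 14 UMIs in the receptor library and the weaker one 8 (quartiles 6 and 12). In spleen the medians were 13 and 8 (quartiles 6 and 12). The weaker chain held a median of 39.8% of a cell's TRA UMIs in brain (quartiles 33.3 and 44.4) and 40.2% in spleen (33.3 and 45.5), and 50% would be an even split. It held at least 20% of them in 370 of 386 brain cells (95.9%) and 840 of 860 spleen cells (97.7%), and no less than 12.1% in any brain cell or 8.70% in any spleen cell. At least 3 UMIs supported the weaker chain in 96.6% and 95.6% of cells.

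Cells with 2 TRA held more alpha UMIs and about as many beta UMIs. That they hold more TRA UMIs is in part given by the rule, which asks for a second detected chain. All TRA UMIs together had a median of 23 in brain cells with 2 TRA and 10 in those with 1 TRA, a ratio of 2.30, and of 22 and 11 in spleen, a ratio of 2. The stronger chain alone, with the medians of 14 and 13 above, also exceeded the only chain of cells with 1 TRA. The single beta chain had medians of 19 and 18 UMIs in brain, and 23 and 23 in spleen. In the RNA libraries, Trac, the alpha constant gene that every alpha transcript ends with, had 438 CPM (UMIs of a gene scaled to a common total per group of cells) in brain cells with 2 TRA and 339 CPM in those with 1 TRA, a ratio of 1.29 (1.23 to 1.36). In spleen it had 460 and 371 CPM, a ratio of 1.24 (1.20 to 1.29). Trbc2, a beta constant gene, had 281 and 281 CPM in brain and 357 and 365 CPM in spleen. In barcodes with 2 TRB the Trac ratio to cells with 1 TRA was 1.07 and 1.08.

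The weaker chain was also seen in the RNA libraries, under the same barcodes. Its TRAV gene had at least 1 RNA UMI in 211 of 380 brain cells (55.5%, 50.4 to 60.6) and in 530 of 851 spleen cells (62.3%, 58.9 to 65.5), leaving out cells whose 2 TRA share a TRAV. The stronger chain's TRAV gene was found in 66.3% and 62.0%, and the only TRAV of cells with 1 TRA in 67.6% and 59.0%. The same TRAV genes, looked up in cells with 1 TRA that used another TRAV, were found in 0.888% and 0.873%.

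Doublets, which are 2 cells under 1 barcode, were checked against barcodes with 2 productive TRB, since no doublet caller was run. Cells with 2 TRA held a median of 10736.5 RNA UMIs in brain and 7748.5 in spleen, against 10166 and 7423 with 1 TRA, which are ratios of 1.06 and 1.04. Barcodes with 2 TRB and 2 TRA held 19435 and 12458, ratios of 1.91 and 1.68, and those with 2 TRB and 1 TRA held 11900 and 8369, ratios of 1.17 and 1.13. The number of genes followed the same order, with ratios of 1.04 and 1.02 in cells with 2 TRA and of 1.41 and 1.42 in barcodes with 2 TRB and 2 TRA. The ratio of RNA content in cells with 2 TRA was thus nearer to 1 than in either class with 2 TRB. B cell genes summed to 122 CPM in brain cells with 2 TRA, 156 CPM with 1 TRA and 367 CPM with 2 TRB, and to 379, 372 and 330 CPM in spleen. Myeloid and microglia genes summed to 131, 137 and 242 CPM in brain, and to 95.03, 99.02 and 104 CPM in spleen. Of the defining markers, Cd79a had a UMI in 1 brain and 6 spleen cells with 2 TRA, and C1qb in 8 and 0. These genes mark a T cell joined with another cell type. A pair of T cells would not raise them, so that they cannot decide whether the second TRA came from a second T cell.

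**Figure D1:**
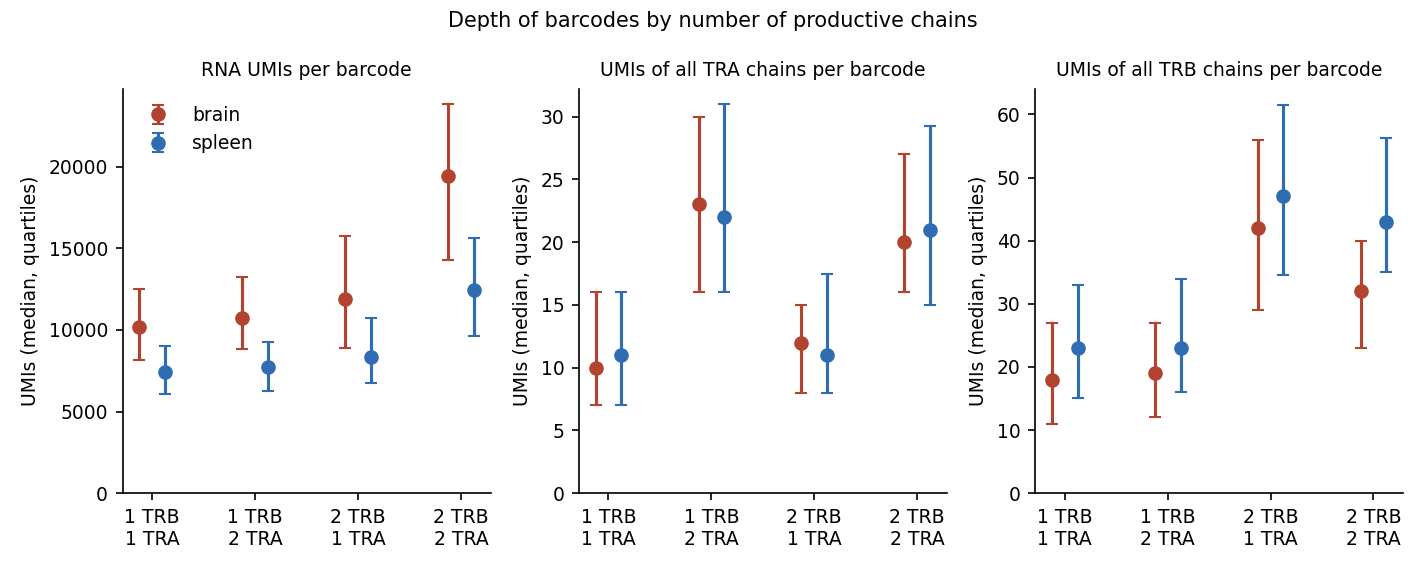
RNA UMIs, UMIs of all TRA chains and UMIs of all TRB chains per barcode (y axes, each from 0) by number of productive chains (x axis) in brain and spleen, with points at the median and bars from the lower to the upper quartile. The RNA median of cells with 2 TRA lies 1.06 times (brain) and 1.04 times (spleen) above that of cells with 1 TRA, and that of barcodes with 2 TRB and 2 TRA 1.91 and 1.68 times above.

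The share of cells with 2 TRA followed the depth of the RNA library to a degree. Across 5 equal groups of cells ordered by RNA UMIs, it was 9.24% (7.09 to 11.8), 11.2%, 12.6%, 12.9% and 15.6% (12.9 to 18.7) in brain from the shallowest to the deepest. In spleen it was 10.96%, 11.3%, 13.5%, 14.1% and 13.9%. The brain series thus moved in 1 direction, with lowest and highest intervals that do not overlap, and the spleen series levelled off from the third group on. Between 5000 and 15000 RNA UMIs, which leaves out the shallowest and the deepest cells, the share was 11.97% in brain and 13.1% in spleen. Across 3 groups ordered by TRB UMIs it was 10.9%, 12.7% and 13.4% in brain, and 12.2%, 12.9% and 13.2% in spleen. How far missed chains at low depth and doublets at high depth enter these shares was not tested.

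The 2 chains of a cell used J segments that lie near each other. TRAJ segments are numbered by their order along the alpha locus, so that the difference between 2 numbers is a distance in segments. The median distance was 6 segments in brain (quartiles 4 and 10) and 7 in spleen (3 and 12), against 14 and 14 for chains taken from different cells with 2 TRA. In barcodes with 2 TRB and 2 TRA it was 13 and 10. Distances over 20 segments were found in 20 of 386 brain cells (5.18%) and 47 of 860 spleen cells (5.47%), and in 22.9% and 18.1% of barcodes with 2 TRB and 2 TRA. Over the cells of 1 library, the 2 TRAJ numbers had a Pearson correlation of 0.69 in brain (n = 386) and 0.70 in spleen (n = 860), as a description of cells that share a library and, in part, a clone. With each receptor counted once it was 0.67 (n = 300) and 0.69 (n = 814). In barcodes with 2 TRB and 2 TRA it was 0.15 (n = 96) and 0.27 (n = 116).

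**Figure D2:**
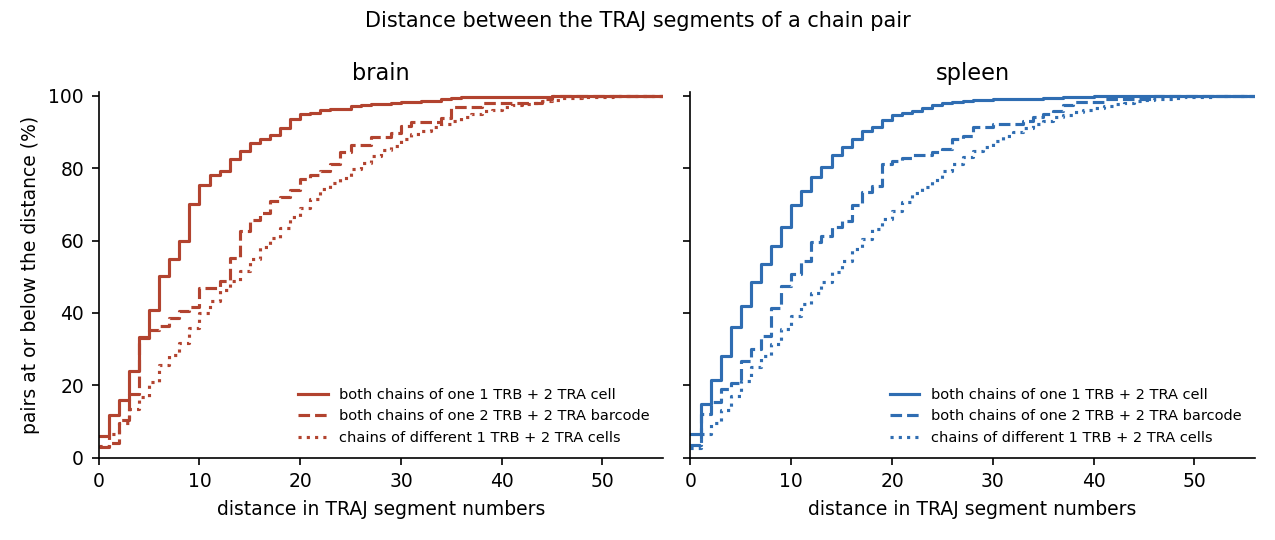
Share of chain pairs (%, y axis) at or below each distance between 2 TRAJ segments (x axis, in segment numbers) for both chains of cells with 2 TRA, of barcodes with 2 TRB and 2 TRA, and pairs of chains from different cells. Between 5 and 40 segments the curve of cells with 2 TRA lies highest, with 40.9% of brain and 42.0% of spleen cells within 5 segments, against 35.4% and 26.7% of barcodes with 2 TRB and 2 TRA.

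V segments showed far less of this order. All 88 TRAV names in the receptor libraries matched the 130 TRAV genes of the RefSeq gene order (assembly GRCm38.p6), and ranks in that order had a Pearson correlation of 0.09 in brain and 0.09 in spleen over the same cells. The median rank distance was 28 and 24 genes, against 32 and 29 for chains of different cells. The 2 chains used the same TRAV in 6 brain and 9 spleen cells and the same TRAJ in 23 and 57. They were identical in TRAV, TRAJ and CDR3 in 3 brain and 2 spleen cells, which is what 1 chain assembled as 2 contigs would give.

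Pairs of segments were mostly seen once. The 300 distinct brain receptors held 276 different TRAV pairs and 224 different TRAJ pairs, and the 814 spleen receptors held 643 and 410. The most frequent TRAJ pair was TRAJ31 with TRAJ37 in brain (5 receptors), and TRAJ23 with TRAJ27 and TRAJ31 with TRAJ32 in spleen (7 each). The most frequent TRAV pairs were TRAV12D-3 with TRAV3N-3, TRAV4N-4 with TRAV7D-2 and TRAV7-4 with TRAV7N-5 in brain (3 each), and TRAV11 with TRAV13-1 in spleen (5). The stronger chain used the higher TRAJ number, which is the one nearer to the V segments, in 169 of 363 brain cells (46.6%, 41.3 to 51.8) and 370 of 803 spleen cells (46.1%, 42.6 to 49.6). By band of the locus, TRAJ2 to TRAJ20, TRAJ21 to TRAJ40 and TRAJ41 to TRAJ61 took 26.3%, 50.2% and 23.5% of the chains of brain receptors with 2 TRA, and 26.5%, 52.4% and 21.2% of those with 1 TRA. In spleen they took 26.9%, 50.4% and 22.7%, against 31.3%, 45.0% and 23.7%.

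A few segments were used much more by receptors with 2 TRA. Each segment's share of distinct chains was compared between receptors with 2 TRA (600 chains in brain, 1628 in spleen) and with 1 TRA (1839 and 5435), and called where the interval of the ratio excluded 1. Of 87 TRAV segments in brain, 6 were called higher (6.9% of those compared) and 2 lower (2.3%), and of 88 in spleen 9 higher (10.2%) and 4 lower (4.55%). Of 43 TRAJ segments, 2 were higher (4.65%) and 2 lower (4.65%) in brain, and 4 higher (9.3%) and 4 lower (9.3%) in spleen. In both tissues the same direction was called for 3 TRAV and 1 TRAJ segment that were higher and 1 of each that were lower. Among 22 TRBV segments none was called in brain and 1 was higher in spleen (4.55%), TRBV5, with a ratio of 1.29 (1.01 to 1.63).

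The 3 TRAV segments higher in both tissues belong to the TRAV15 family, a V family shared with the delta chain of gamma-delta T cells, in which near-identical copies carry the letters D and N, so that the name among copies is uncertain. TRAV15D-1-DV6D-1 was in 4 brain and 17 spleen chains of receptors with 2 TRA and in 0 of 1839 and 0 of 5435 chains of receptors with 1 TRA. Zero counts allow up to 0.163% and 0.0552%, and against these limits the segment was at least 4.09-fold higher in brain and at least 18.9-fold higher in spleen. Exact intervals, which also count the error in the 4 and 17 chains, begin at 2.02 and 13.8. TRAV15-1-DV6-1 was in 5 against 0 chains in brain, at least 5.11-fold higher by the same limit (exact interval from 2.81), and in 10 against 1 in spleen, a ratio of 33.4 (4.75 to 1449). TRAV15N-2 was likewise in 5 against 0 chains in brain, at least 5.11-fold higher (exact interval from 2.81), and in 9 against 3 in spleen, a ratio of 10.0 (2.50 to 57.5).

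Seen from the family, which was put together after these values were seen, 15 of 16 brain receptors with a TRAV15 chain had a second TRA (93.8%), and 39 of 43 in spleen (90.7%). It was the weaker chain in 10 of 15 and 26 of 39 of them. Chains of barcodes with 2 TRB held it in 0 of 275 and 2 of 431 (0.464%). The family chain had a median of 8 UMIs in 19 brain cells (3 to 22) and of 7 UMIs in 39 spleen cells (2 to 19), and its partner 9 and 9. Examples are printed because these chains stand almost wholly inside cells with 2 TRA. The first is a brain clone of 3 cells, followed by 2 spleen cells, 1 of which pairs the family with an invariant natural killer T (iNKT) chain.
Brain, TRAV15D-1-DV6D-1 and TRAJ7: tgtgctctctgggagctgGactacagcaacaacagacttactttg
Its partner, TRAV3N-3 and TRAJ21: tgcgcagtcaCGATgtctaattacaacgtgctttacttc
Spleen, TRAV15-1-DV6-1 and TRAJ37: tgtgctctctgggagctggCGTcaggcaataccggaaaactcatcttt
Its partner, TRAV11 and TRAJ18: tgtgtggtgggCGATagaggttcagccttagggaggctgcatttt
Spleen, TRAV15N-2 and TRAJ26: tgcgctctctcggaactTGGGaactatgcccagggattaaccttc
Its partner, TRAV4N-4 and TRAJ31: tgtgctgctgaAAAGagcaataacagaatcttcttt

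In the brain clone the family chain had 13, 9 and 3 UMIs and the partner 14, 24 and 6. In the spleen cells the family chain had 7 UMIs beside 12 of the iNKT chain, and 15 beside 14. The RNA libraries held a UMI of a TRAV15 gene in 12 of 19 brain cells (63.2%) and 20 of 39 spleen cells (51.3%) with 2 TRA and such a chain. Among the other cells with 2 TRA the count was 0 of 367 in brain, which allows up to 0.817%, and 10 of 821 in spleen (1.22%). In cells with 1 TRA and no such chain in the receptor library it was 39 of 2751 (1.42%) and 115 of 5885 (1.95%), and in barcodes without a receptor 17 of 613 (2.77%) and 9 of 959 (0.938%).

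TRAJ35 was the J segment higher in both tissues, with 9 of 600 against 7 of 1839 chains in brain, a ratio of 3.94 (1.31 to 12.5), and 30 of 1628 against 16 of 5435 in spleen, a ratio of 6.26 (3.31 to 12.3). Receptors with 2 TRA made up 9 of 16 brain and 30 of 46 spleen receptors with TRAJ35. The chain had a median of 11 UMIs in brain and 11.5 in spleen. Segments called higher in 1 tissue had ratios from 1.87 (TRAJ12) to 18.4 (TRAV1) in brain and from 1.81 (TRAJ45) to 15.6 (TRAV13N-4) in spleen. TRAV1 had 1 chain with 1 TRA in brain and TRAV13N-4 had 3 in spleen, and their intervals are wide (2.23 to 846 and 4.35 to 84.5).

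**Figure D3:**
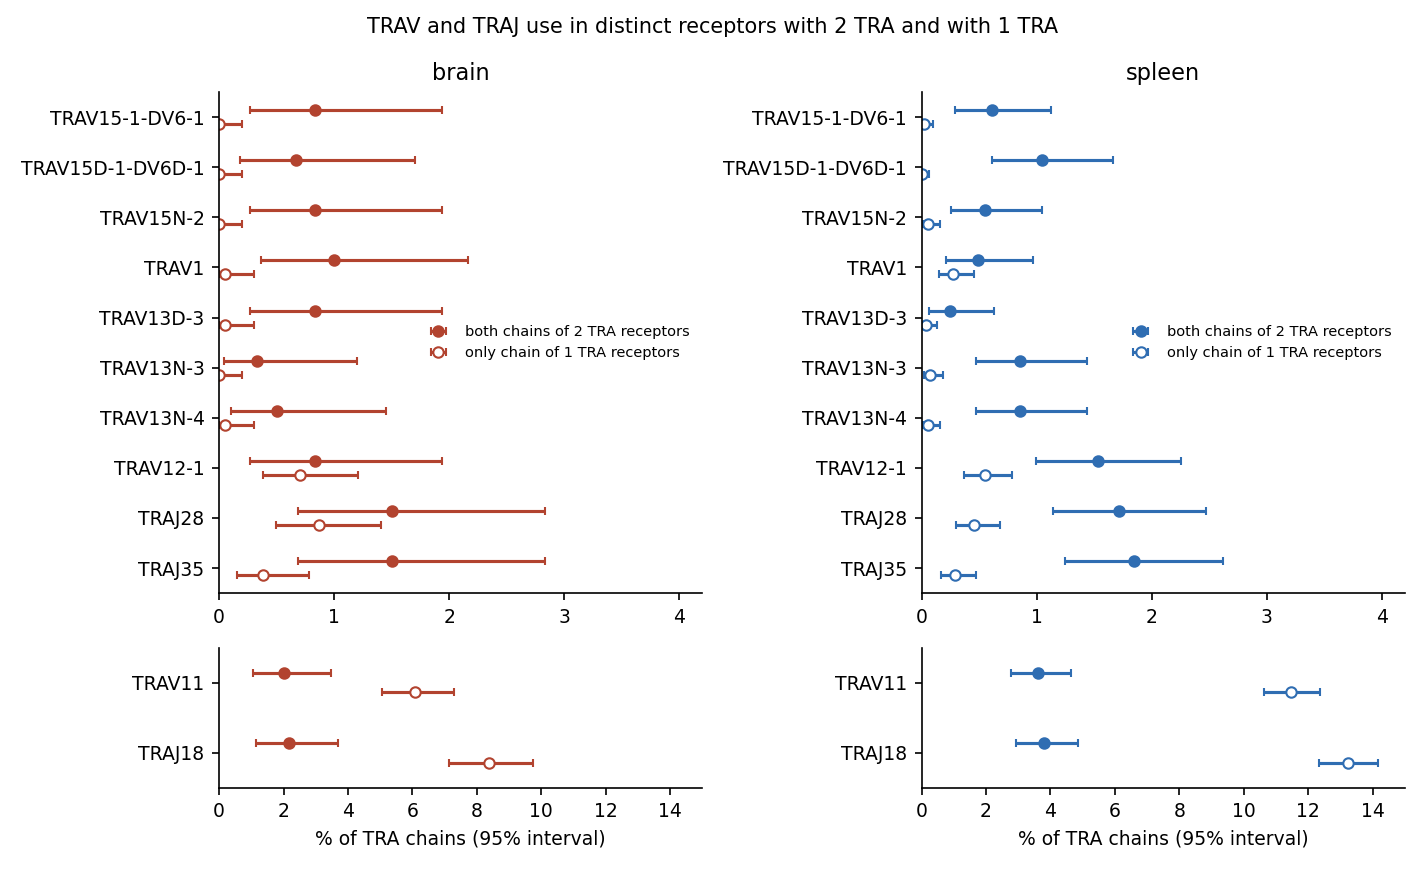
Share of distinct TRA chains (%, x axis) that used a segment, with 95% intervals, in receptors with 2 TRA (filled points) and with 1 TRA (open points), for segments called higher (upper panels) or lower (lower panels, on a wider scale) in at least 1 tissue. For TRAV15 members and TRAJ35 the filled points lie to the right in both tissues, and for TRAV11 and TRAJ18 to the left, at ratios of 0.259 to 0.328. Filled points count both chains of a receptor, which lowers the ratios of TRAV11 and TRAJ18 in part.

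The segments lower in both tissues were those of the invariant natural killer T receptor, TRAV11 joined to TRAJ18, a fixed alpha chain that recognises lipids on CD1d. TRAV11 had ratios of 0.328 (0.165 to 0.597) in brain and 0.316 (0.237 to 0.413) in spleen, and TRAJ18 of 0.259 (0.135 to 0.456) and 0.288 (0.218 to 0.373). Both chains of a receptor with 2 TRA enter these shares. The partner of an iNKT chain thus counts in the total too, which by itself lowers these ratios below those over cells. Of 122 brain cells with this receptor 7 had a second TRA (5.74%, 2.34 to 11.5), and of 659 spleen cells 34 (5.16%, 3.599 to 7.13). The share among all other cells was 12.6% (11.4 to 13.8) and 13.6% (12.7 to 14.4), at medians of 10230.5 and 7472 RNA UMIs against 10372 and 7386 in the iNKT receptor cells. Among cells with 1 TRA, that chain had a median of 8 UMIs in brain cells with the iNKT receptor and 11 in the others, and of 10 and 11 in spleen. RNA depth was thus close, and receptor depth was lower in the iNKT receptor cells of brain. How far receptor depth enters the share was not tested. The iNKT chain was the stronger of the 2 in 4 of 7 and 25 of 34 cells.

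The weaker chain was rarely shared with another beta chain. It was found with a different TRB in 22 of 386 brain cells (5.70%) and 44 of 860 spleen cells (5.12%). The stronger chain was found so in 15.03% and 7.67%, and the only TRA of cells with 1 TRA in 21.003% and 18.5%. Without iNKT receptor cells these shares were 4.75% and 4.36% for the weaker chain, 14.5% and 5.08% for the stronger, and 17.6% and 8.97% for an only TRA. In barcodes with 2 TRB and 2 TRA the weaker chain was found with another TRB in 12.5% and 14.7%, and in 9.09% and 7.92% without iNKT receptor cells.

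Whole receptors with 2 TRA came back in other cells. Both TRA and the TRB were found together again in 129 of 386 brain cells (33.4%, 28.7 to 38.4) and 86 of 860 spleen cells (10.0%, 8.08 to 12.2), which is 215 of 1246 in all (17.3%, 15.2 to 19.5). They formed 65 receptors among 1096, of which 18 had cells in both tissues. Of the 270 cells with 2 TRA whose TRB was also in another cell, 252 (93.3%) shared at least 1 TRA with such a cell and 215 (79.6%, 74.3 to 84.3) shared both. Seen from the 65 receptors, 257 cells had the TRB and 1 or 2 TRA. Both TRA were listed in 215 (83.7%), only the first in 38 and only the second in 4. These receptors were picked for having both TRA in at least 2 cells, so that much of this share is given by the choice. Summed over the receptors, 9 cells with 1 TRA had the TRB with another TRA, and 3 of these are already among the 38. They list the first TRA of R1 alone, and R50, a receptor of 2 brain cells, has the same TRB as R1.

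The cells in which 1 of the chains was missing were shallower in RNA and TRB UMIs. In brain, cells with both TRA had a median of 10991 RNA UMIs and 18 TRB UMIs (129 cells), and those with 1 of them 8803.5 and 11.5 (26 cells). In spleen the medians were 7236 and 26 (86 cells) against 5630.5 and 13 (16 cells). The stronger or only listed TRA did not follow this in brain, with a median of 15 UMIs with both and 17.5 with 1 of them. In spleen it had 16 and 11. By receptor, the RNA median was higher with 1 of them in R12 (12886 against 11583.5) and R58 (9624 against 8232), and lower in the others. How far depth enters the missing chains was not tested. A receptor with many exceptions was R9, a brain receptor with TRAV10 and TRAJ31 as the first chain and TRAV11 and TRAJ32 as the second, for which 4 cells had both and 12 only the first.

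The balance of the 2 chains was in part a property of the receptor. In the 27 receptors with at least 3 cells, the chain with more UMIs over all cells was the stronger in 103 of 139 cells, tied in 9 and the weaker in 27, and 1 chain was the stronger in every cell of 9 receptors. R1 had 568 UMIs of its first TRA and 344 of its second (37.7%), and the first was the stronger in 23 of 27 cells, with 3 further cells that listed the first alone. R2 had 253 and 176 UMIs, and its first TRA was the stronger in 12 of 13 cells and tied in 1. R3 had 102 and 83 UMIs with the first the stronger in 4 of 8 cells, and R4 had 168 and 166 with the first the stronger in 3 of 7. R1 and R2 thus kept 1 leading chain, and R3 and R4 did not. Here the first chain was picked for its higher total, so that some excess of first over second is given by the choice.

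Clones were defined by the beta chain alone (TRBV, TRBJ and CDR3 nucleotides within a tissue), so that the alpha chains did not enter. In brain 141 of 386 cells with 2 TRA were in clones of at least 2 cells (36.5%, 31.7 to 41.6), against 1209 of 2752 with 1 TRA (43.9%, 42.1 to 45.8). In spleen the shares were 97 of 860 (11.3%, 9.24 to 13.6) and 757 of 5889 (12.9%, 12.01 to 13.7). The brain share was lower in cells with 2 TRA with intervals that do not overlap, and the spleen intervals overlap. The intervals treat cells as independent, but all cells of a clone enter together. In brain, cells with 1 TRA lay in clones of up to 67 cells, and those with 2 TRA of up to 32. The intervals therefore cannot decide whether the brain shares differ. The share of cells with 2 TRA was 13.7%, 12.3%, 10.7% and 7.74% in brain clones of 1, 2 to 4, 5 to 9 and 10 or more cells. With each receptor counted once it was 13.7%, 15.8%, 14.1% and 18.2%, the last from 4 of 22 receptors (5.19 to 40.3). The decline over cells was thus not seen over receptors. A receptor here is a TRB with its listed TRA, so that 1 TRB clone can hold several receptors. The TRB of R9, with 4 cells that list both TRA and 12 only the first, enters with 2 TRA and with 1 TRA. How far this enters the shares by clone size was not tested. In spleen the shares over cells were 12.9%, 12.6%, 12.8% and 0 of 85, which allows up to 3.53%, and these 85 cells came from 3 receptors.

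**Figure D4:**
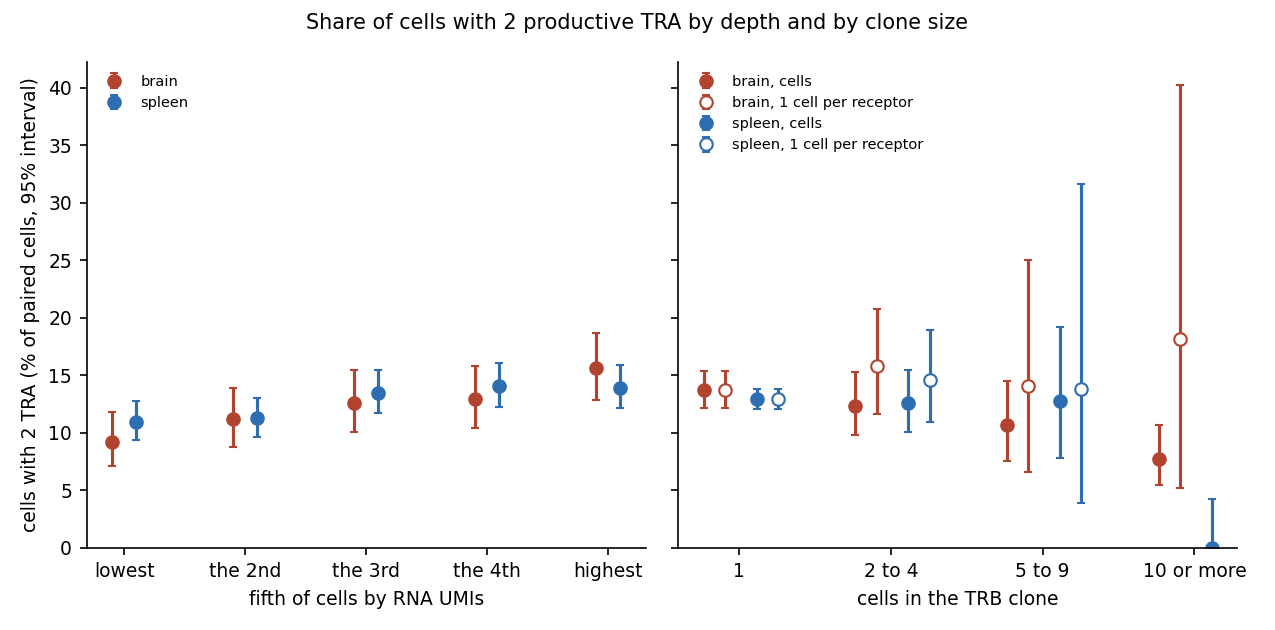
Share of paired cells with 2 TRA (%, y axis) with 95% intervals, by 5 groups of RNA UMIs and by TRB clone size, in brain and spleen, over cells (filled points) and, for clones, over distinct receptors (open points; the 3 spleen receptors in clones of 10 or more are not drawn). The brain share goes from 9.24% to 15.6% with depth, and over cells from 13.7% to 7.74% with clone size.

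Gene expression was compared on summed UMIs, as CPM in cells with 2 TRA over CPM in cells with 1 TRA. A gene was called at a ratio of at least 1.5 in either direction with an interval that excluded 1, provided the group with more of it had 10 CPM or more. In brain 54 of 8321 genes were called higher (0.649%) and 93 lower (1.12%), and in spleen 40 of 8438 higher (0.474%) and 99 lower (1.17%). Of these, 31 and 59 in brain and 23 and 46 in spleen reached 10 CPM in only 1 of the groups, so that a gene near the minimum entered through the group where it is high. Receptor segments made up 20 of the 54 and 28 of the 40, which is in part fixed by the choice of cells: a second alpha chain adds a TRAV transcript. Trav2, Trav10, Trav13-1 and Trav5-1 were higher in both tissues, Trav2 with ratios of 7.95 and 6.97. Of 11 genes called higher in both, Il23r was the one that is no receptor segment. Of 25 called lower in both, 23 are no receptor segments. The median gene had a log2 ratio of -0.02 in brain and -0.01 in spleen.

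In brain, several genes of the Th17 state were higher in cells with 2 TRA. Of 10 genes on the Th17 list 5 were called higher and 0 lower, with a median log2 ratio of 0.58. Il17a, the cytokine that names the state, had 366 CPM with 2 TRA and 213 CPM with 1 TRA, a ratio of 1.72 (1.62 to 1.81). Ccr6, a chemokine receptor of Th17 cells, had 51.7 and 29.99 CPM, a ratio of 1.72 (1.48 to 1.995). Il23r, the receptor for IL-23, had 60.5 and 38.2 CPM, a ratio of 1.58 (1.38 to 1.81).

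More cells held these transcripts. A UMI of Il17a was found in 56 of 386 brain cells with 2 TRA (14.5%) and 225 of 2752 with 1 TRA (8.18%). With every cell thinned to 3000 UMIs, which left out 1 and 14 cells, the Il17a shares were 11.2% and 6.90%, those of Il23r 10.4% and 6.17%, and those of Ccr6 10.4% and 5.44%. In a brain cluster of 342 barcodes led by Igfbp4, Dapl1 and Ccr7, genes of naive and recirculating cells, none of these 3 genes had a UMI, which allows up to 0.877%. The median depth of that cluster was 10046 UMIs.

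The largest receptor carried part of the brain Th17 difference. R1 held 493 of the 1620 Il17a UMIs (30.4%), with a UMI in 14 of its 27 cells (median 1, highest 130). Without R1 the ratio was 1.29 for Il17a and 1.49 for Ccr6, both under the call, and 1.51 for Il23r. Il22, a further Th17 cytokine with a ratio of 1.504 (1.22 to 1.84), rested on 5 cells, and 109 of its 117 UMIs came from R1. Its ratio was 0.13 without R1 and 0.14 with 1 cell per receptor. With 1 cell per receptor the ratios were 1.55 for Il17a, 1.52 for Il23r and 1.29 for Ccr6. Il17a and Il23r thus stayed past 1.5 when each receptor counted once, and Il23r also without R1.

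R1 and R2 lay mostly in different clusters, with 1 brain cell of each in the main brain cluster of the other. The cells were clustered without receptor genes, and clusters are given by number and leading genes. Of the 27 cells of R1, 16 were in brain cluster 8 (led by Il17a, Nrgn and Ccl1) and 7 in cluster 6 (Ccl3, Ccl4 and Rgs16). Of the 8 brain cells of R2, 7 were in cluster 7 (Ccr6, Mmp25 and Il22), and its 5 spleen cells were all in spleen cluster 15 (Ccr6, Tmem176b and Tmem176a). Il23r had a UMI in 8 of 8 brain and 4 of 5 spleen cells of R2, and Ccr6 in all 13. R3 had 5 of 8 cells in brain cluster 5 (Ifitm1 and Ifitm2), and R4 had 5 of 6 spleen cells in cluster 14 (Sostdc1 and Pdcd1). Most cells of each of these receptors thus lay in 1 cluster of their main tissue.

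In spleen the Th17 list had 1 of 6 measured genes called higher and 0 lower, with a median log2 ratio of 0.26. This gene was Il23r, with 13.4 and 8.18 CPM, a ratio of 1.63 (1.29 to 2.05), and 1.08 with every cell thinned to 3000 UMIs. Its UMIs were found in 33 of 860 cells with 2 TRA (3.84%) and 166 of 5889 with 1 TRA (2.82%). Il17a had no UMI in the 860 spleen cells with 2 TRA, which allows a share of up to 0.349% with a UMI, and 22 UMIs in those with 1 TRA.

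The other named brain genes that were higher were Areg and Atf3. Areg, which encodes the growth factor amphiregulin, had 58.0 and 37.1 CPM, a ratio of 1.56 (1.36 to 1.79), and a UMI in 11.1% of cells with 2 TRA against 8.58%. With 1 cell per receptor its ratio was 1.48, just under the call. Atf3, a stress-induced transcription factor, had 137 and 85.2 CPM, a ratio of 1.61 (1.47 to 1.76), and 1.27 with 1 cell per receptor. It was 1 of 7 measured stress and dissociation genes called, all others being between the fold limits, and 0 of 6 were called in spleen. On the list of gamma-delta T and natural killer cell genes, 1 of 2 measured genes was higher in brain, and none reached 10 CPM in spleen. Trgc1, a constant gene of the gamma chain, had 15.1 and 6.87 CPM, a ratio of 2.20 (1.64 to 2.92), with 49.3% of its UMIs in 5 cells.

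Some Th1 genes were lower. In brain 3 of 8 measured genes on the Th1 list were called lower and 0 higher, with a median log2 ratio of -0.35, and in spleen 3 of 7 lower and 0 higher, with -0.43. Il12rb2, a chain of the IL-12 receptor, had 74.0 and 116 CPM in brain, a ratio of 0.64 (0.57 to 0.71), and 20.03 and 50.7 CPM in spleen, for a ratio of 0.39 (0.33 to 0.47). Ifng, the Th1 cytokine, had 211 and 323 CPM in brain, a ratio of 0.65 (0.61 to 0.70), with a UMI in 38.3% and 45.6% of cells. With 1 cell per receptor the Ifng ratio was 0.96 and that of brain Il12rb2 0.75, both outside the call. Ccl4, a chemokine, had 16.0 and 51.2 CPM in brain, a ratio of 0.31 (0.24 to 0.40). R1 held 42 of its 71 UMIs with 2 TRA (59.2%), and the ratio was 0.14 without R1. In spleen Tbx21, the lineage factor, had 24.1 and 46.2 CPM, a ratio of 0.52 (0.44 to 0.61), and Nkg7, a granule gene, 0.65 (0.61 to 0.69). Without iNKT receptor cells the spleen ratios were 0.59 for Il12rb2, 0.63 for Tbx21 and 0.79 for Nkg7, the last outside the call. With 1 cell per receptor Nkg7 was at 0.71, also outside it.

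Genes of innate-like and natural killer T cells were lower in spleen. All 7 measured genes of the list were called lower there, with a median log2 ratio of -0.95, and 2 of 5 in brain, with -0.19. Zbtb16, the factor that drives the iNKT programme, had 5.97 and 23.4 CPM in spleen, for a ratio of 0.26 (0.18 to 0.35), and 2.71 and 10.7 CPM in brain, a ratio of 0.25 (0.13 to 0.45). Xcl1, a chemokine of innate-like cells, had 20.7 and 40.1 CPM in spleen, for a ratio of 0.52 (0.43 to 0.61), and 42.7 and 108 CPM in brain, a ratio of 0.39 (0.34 to 0.46). Cells with the iNKT receptor made up 3.95% of spleen cells with 2 TRA and 10.6% of those with 1 TRA, and 1.81% and 4.18% in brain. Without them the spleen ratio was 0.40 for Zbtb16 and 0.66 for Klrb1c, the gene of the NK1.1 receptor, and it turned to 1.96 for Xcl1. In brain the ratios without them were 0.43 for Xcl1 and 0.16 for Zbtb16, the latter further from 1 than with them.

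Some residency and cytotoxic genes were lower in spleen. Of 9 measured residency genes 4 were lower in spleen, and 0 of 9 were called in brain. Cxcr6, a chemokine receptor of tissue-resident cells, had 105 and 197 CPM in spleen, for a ratio of 0.53 (0.49 to 0.58), and 0.88 without iNKT receptor cells. Ckb, a creatine kinase among the lowest called genes of spleen, had a ratio of 0.50 (0.43 to 0.58), and 0.93 without them. Itga1, an integrin chain, had 6.11 and 19.1 CPM, a ratio of 0.32 (0.23 to 0.43), and 0.34 without them. Zfp683 went from 0.53 to 0.83 and Bhlhe40 from 0.66 to 0.77 in spleen without them, both outside the call. In brain 1 of 9 measured cytotoxic genes was lower and 0 higher, namely Gzma, a granzyme with 2.48 and 11.03 CPM (0.23, 0.11 to 0.41). It was 0.41 with 1 cell per receptor. Of 7 measured cytotoxic genes 3 were lower and 1 higher in spleen. Gzmb had a spleen ratio of 0.42, and 0.57 without iNKT receptor cells. Without them Ctsw went from 0.56 to 0.73 and Fasl from 0.53 to 0.75, both outside the call. Gzmk, the granzyme that was higher, had 16.5 and 9.91 CPM, a ratio of 1.66 (1.35 to 2.04), with 62.1% of its UMIs in 5 cells, and it was found in 2.44% and 2.36% of cells.

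Cell cycle genes were lower in both tissues, from few cells. Of 7 measured genes, 5 were called lower in brain (median log2 ratio -1.11) and 7 in spleen (-1.16). Top2a, the DNA topoisomerase of dividing cells, had 29.8 and 66.8 CPM in spleen, for a ratio of 0.45 (0.39 to 0.51), and H1f5, a linker histone, 31.4 and 102 CPM, a ratio of 0.31 (0.27 to 0.35). Cells with at least 10 UMIs over the list numbered 3 of 386 with 2 TRA and 47 of 2752 with 1 TRA in brain (0.777% and 1.71%), and 11 of 860 and 115 of 5889 in spleen (1.28% and 1.95%), with intervals that overlap. At 5 UMIs or more the brain order turned, with 16 (4.15%) and 103 (3.74%), while spleen had 21 (2.44%) and 183 (3.11%). Without the 10% of barcodes with most RNA UMIs, the ratios were 1.34 for Top2a and 1.22 for H1f5 in spleen. In brain Birc5 (1.42), Rrm2 (1.09), Tyms (1.12) and Ube2c (1.28) turned as well, Pclaf went from 0.07 to 0.58, and Stmn1 from 0.25 to 0.74. The direction of most of these genes thus depends on the barcodes with most RNA UMIs. Cells with at least 10 UMIs over the list were themselves deep. With 1 TRA their medians were 20303 RNA UMIs in brain and 19654 in spleen, and with 2 TRA 21766 and 24136. Leaving out the deepest barcodes can thus also remove dividing cells, and how far depth itself enters was not tested.

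**Figure D5:**
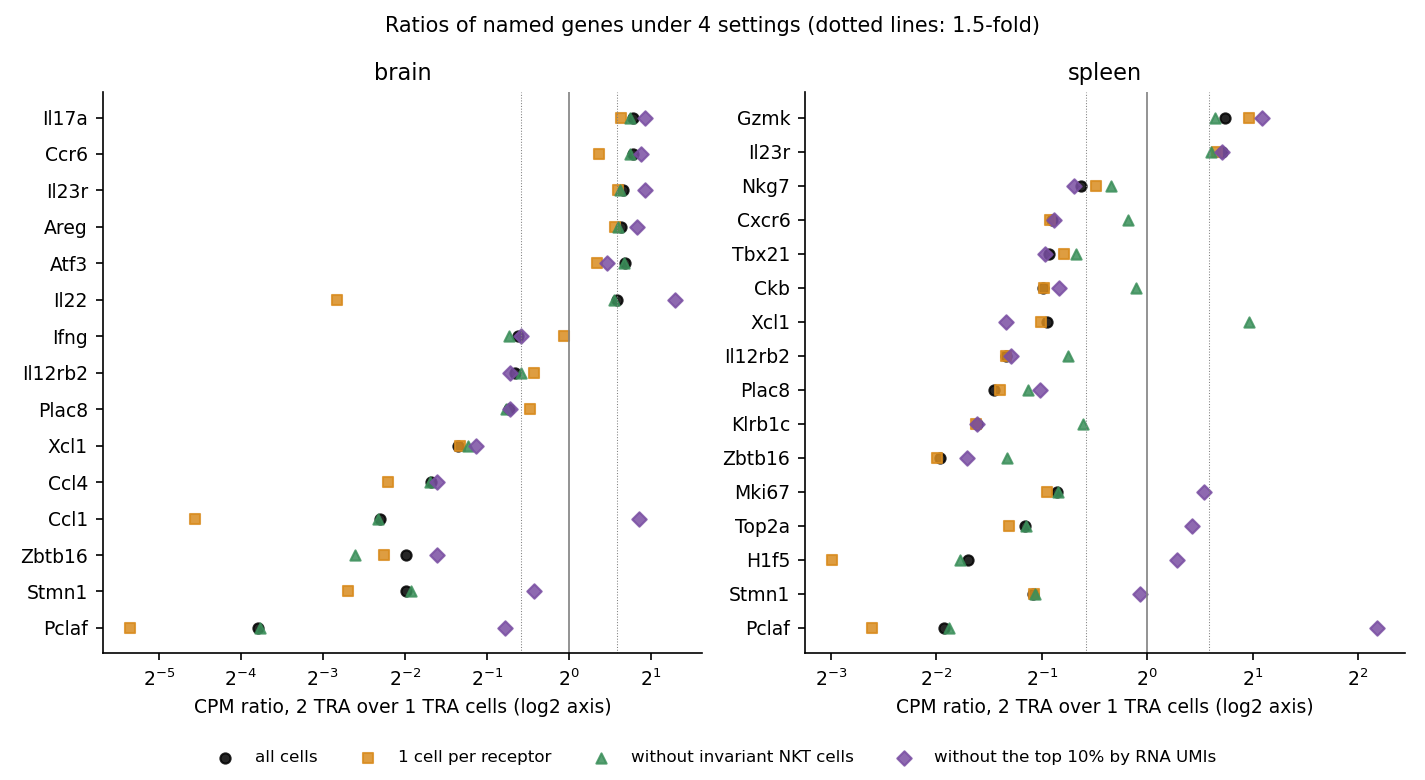
Ratio of CPM in cells with 2 TRA over cells with 1 TRA (log axis) for named genes in brain and spleen over all cells (circles), with 1 cell per receptor (squares), without iNKT receptor cells (triangles) and without the 10% of barcodes with most RNA UMIs (diamonds), with dotted lines at 1.5-fold. Over all cells Il17a, Ccr6 and Il23r lie above 1.5 in brain, and spleen Xcl1 crosses to 1.96 without iNKT receptor cells.

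Receptor signalling genes did not differ past the call. Of 12 measured genes of proximal receptor signalling none was called in either tissue, with median log2 ratios of -0.03 and -0.01. Over all genes, 0.649% were called higher and 1.12% lower in brain, and 0.474% and 1.17% in spleen. For lists this short, here and in the next paragraph, a count of 0 is near those shares. Of the early response genes that follow receptor stimulation, 0 of 9 were called in brain and 0 of 7 in spleen (medians -0.06 and -0.03). On the receptor complex and coreceptor list, 1 of 9 was called in brain, Cd8b1, which was lower at a ratio of 0.47 (0.34 to 0.64) and at 0.672, outside the call, with 1 cell per receptor, and 0 of 9 in spleen. Cd3e had ratios of 0.98 in brain and 1.01 in spleen. Cd5, a negative regulator whose level follows receptor signal strength, had 0.98 and 1.15.

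No gene was called on the naive and recirculation list (9 measured in each tissue, medians 0.09 and 0.13), the follicular helper list (6 and 7, medians 0.07 and 0.06) or the regulatory T cell list (7 and 7, medians 0.22 and 0.15). The same held for the 4 measured genes of receptor rearrangement in each tissue (medians -0.02 and 0.10) and the 2 of other cells of brain and blood, a list whose genes summed to 270 CPM with 2 TRA and 256 CPM with 1 TRA in brain and to 318 and 306 CPM in spleen. On the interferon response list 0 of 9 were called in brain and 1 of 8 in spleen, Mx1, which was lower at 0.59 (0.43 to 0.78). Mx1 left the call with 1 cell per receptor (0.695) and without the 10% of barcodes with most RNA UMIs (0.741). In 1 of the 2 brain B cell genes measured, Cd74, cells with 2 TRA were lower at 10.8 against 33.1 CPM (0.33, 0.24 to 0.44), where 49.6% of the UMIs with 1 TRA came from 5 cells. Ccl1, a chemokine with 22.3 and 110 CPM in brain (0.20, 0.16 to 0.25), had 2030 of its 3196 UMIs with 1 TRA in a single cell.

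The share of cells with 2 TRA differed between clusters. In brain it was 19.3% in cluster 8 (57 of 296, 14.9 to 24.2) and 16.1% in cluster 2 (led by Foxp3 and Cd74, 11.1 to 22.3). It was 14.98% in cluster 7 (Ccr6 and Il22, 10.9 to 19.8) and 14.05% in cluster 12 (Igfbp4 and Ccr7, 10.3 to 18.5). Of these intervals, only that of cluster 8 excludes the 12.3% of all paired brain cells. The share was 8.54% in cluster 4 (Zfp683, Il12rb2 and Itga1, 55 of 644, 6.50 to 10.97). It was 5.15% in cluster 10 (Klrb1c and Zbtb16), where 112 of 136 paired cells had the iNKT receptor. With each receptor counted once, cluster 8 had 21.4% and cluster 4 13.4%. Cluster 8 thus stayed highest of these by receptor, and cluster 4 came near the 14.03% of all brain receptors. In spleen the share was 17.0% in cluster 19 (Nr4a1 and Egr1; 10.2 to 25.8) and 16.4% in cluster 7 (Ifit3 and Ifit1; 11.8 to 21.9). It was 16.2% in cluster 10 (Myb and Eomes; 11.7 to 21.5), 16.0% in cluster 14 (12.1 to 20.6) and 15.2% in cluster 5 (Igfbp4 and Pdlim4; 13.4 to 17.3). Of these intervals, only that of cluster 5 excludes the 12.7% of all paired spleen cells. It was 5.36% in cluster 11 (Klrb1c and Xcl1; 588 of 634 paired cells with the iNKT receptor), 4.35% in cluster 13 (Zbtb16 and Il17rb) and 4.94% in cluster 3 (Gzma and Zeb2), the last being 8.33% with each receptor counted once (4 of 48). Receptor depth differed as well. All TRA together had a median of 17 UMIs in brain clusters 8, 12 in cluster 4 and 8 in cluster 10, a value that a second TRA itself raises. The TRB had 20, 17 and 20. Spleen cluster 3 had 6 TRA and 11 TRB UMIs. How far depth enters these shares was not tested. These clusters were drawn from the cells' own transcripts, and their shares are a description.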

How the data were processed

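RNA and receptor libraries of sorted CD4+ T cells from brain and spleen (1 of each per tissue) were used. The authors deposited filtered 10x matrices of whole-number UMI counts and filtered receptor contigs with UMI counts, made with Cell Ranger 9.0.0 per the submitters' processing notes, which name several mouse builds without their role; no coordinates are given here. RNA depth was 44386447 UMIs in brain and 65191435 in spleen, and receptor depth 121362 and 302318.

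Barcodes were joined between libraries, filtered and classed by productive chains as stated above. Sums of UMIs were turned into CPM, and ratios were given exact conditional binomial intervals (scipy 1.17.1) with no p-value. No test across replicates was possible, since each group is 1 library. No doublet caller was run; barcodes with 2 TRB served as reference. Clusters came from scanpy 1.11.5 (2000 variable genes, 30 components, 15 neighbours, resolution 0.8) without receptor genes. Shares are over barcodes with receptor calls; PCR and reverse transcription can lose a chain. Scaling was also tried with edgeR 4.0.16 (TMM) and DESeq2 1.42.0 (size factors). Other alternatives were chains of at least 2 or 3 UMIs, 1 cell per receptor, other CPM minimums, cells thinned to 3000 UMIs, and leaving out iNKT receptor cells, R1 or the deepest 10% of barcodes. The gene step was tested on simulated data.

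Named genes were, per tissue, the 6 highest and the 6 lowest called genes with 50 CPM or more (ordered by the end of the interval closer to 1), genes called alike in both tissues, and up to 4 per list; segments of receptors and antibodies, sex-linked genes and genes of mitochondria, ribosomes and haemoglobin did not enter that order. Named receptors were those with most cells. The values of 1 gene are not reported here. The cells, lists and tests were chosen with earlier results of these data known. The lists were TCR complex and coreceptor, receptor rearrangement, proximal signalling, early response, regulatory T cell, Th1, Th17, follicular helper, naive and recirculation, residency, innate-like and NKT, cytotoxic, interferon response, cell cycle, stress and dissociation, B cell, myeloid and microglia, other cells of brain and blood, and gamma-delta T and NK.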

Additional observations from a re-analysis of the deposited data

Results flagged for a closer look

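Trav4-3, a V gene of the alpha locus, was called in opposite directions in the 2 tissues. In brain it had 35 UMIs (7.90 CPM) in cells with 2 TRA and 397 (13.6 CPM) in cells with 1 TRA, a ratio of 0.579 (0.398 to 0.819). In spleen it had 223 UMIs (31.7 CPM) and 940 (19.98 CPM), a ratio of 1.59 (1.36 to 1.84). With 1 cell per receptor the ratios were 0.588 and 1.62. The difference between the tissues was not tested, since each tissue is 1 library.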

How the results depend on the processing

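No paired analysis was possible because the labels carry no replicate numbers and each tissue is 1 library, and no replicate could be left out. Of 147 checks of the main results, 132 gave the same result and 15 moved. Of 1484 checks of 106 gene ratios, 1301 gave the same, 142 moved and 41 turned direction. Some ratio checks could not differ: a CPM minimum leaves a ratio as it is, and R1 has no spleen cells. For gene results the main checks compare the number of genes called, not which genes. With 1 cell per receptor, 31 of 54 higher and 50 of 93 lower brain genes were called again. In spleen 33 of 40 and 83 of 99 were. Without the 10% of barcodes with most RNA UMIs these were 43 and 57 in brain, and 31 and 50 in spleen. The share of cells with 2 TRA ran from 11.6% to 14.03% in brain (14.03% with 1 cell per receptor) and from 12.5% to 13.6% in spleen (13.6% without iNKT receptor cells), the TRAJ distance was 6 to 7 in brain and 7 in spleen, and 20.2% of cells recurred if 1 TRA sufficed. Genes called lower in spleen were 58 without iNKT receptor cells. Thinned to 3000 UMIs, 127 genes were higher and 160 lower in brain and 86 higher in spleen; at a 50 CPM minimum 10 and 10 in brain and 2 and 19 in spleen; with no minimum 293 and 340, and 277 and 392. TMM and DESeq2 factors left 54 higher and 92 and 90 lower in brain and 39 higher and 99 and 99 lower in spleen. Ratios that turned without the 10% of barcodes with most RNA UMIs were, in brain, Birc5 1.42, Ccl1 1.81, Cdca8 1.08, H2ac4 6.96, Kif11 1.16, Kif15 1.12, Rrm2 1.09, Tpx2 1.23, Tyms 1.12 and Ube2c 1.28, and in spleen H1f5 1.22, H2ac4 1.62, H2ac8 1.01, Kif11 1.69, Kif15 1.63, Mki67 1.45, Nusap1 1.96, Pclaf 4.54, Rrm2 1.59, Top2a 1.34, Tpx2 2.33, Tyms 1.20 and Ube2c 1.01. Without cells of at least 5 cell cycle UMIs, chosen after seeing the data, they were Birc5 2.61, H2ac4 1.09, Rrm2 1.23 and Tyms 1.03 in brain and Birc5 1.48, Kif11 1.36, Pclaf 2.01, Rrm2 1.09, Top2a 1.004, Tpx2 1.87, Tyms 1.09 and Ube2c 1.48 in spleen. With 1 cell per receptor brain Il22 0.141 and Trbv30 0.847 turned, without R1 (chosen after seeing the data) brain Il22 0.129, without iNKT receptor cells spleen Xcl1 1.96, and with thinning brain H2ac4 1.497 and Tpx2 1.28. The cause was not tested. Leaving out cells with identical TRA contigs, or barcodes found in both RNA libraries, both chosen after seeing the data, moved none of the main results. A chain with few UMIs can be missed; how far this enters the share was not tested.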
